A study of Mus musculus with 7 samples.

Results

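A set of 9 genes of the interleukin-6, interleukin-23 and STAT3 route by which CD4 T cells take on Th17-like features was followed in regulatory T cells (Treg cells) sorted from mouse melanomas. It holds the transcription factor genes Maf, Ahr and Stat3, the receptor genes Il6ra, Il6st, Il21r and Il23r, the feedback inhibitor gene Socs3 and the cytokine gene Il17a. They were chosen by gene name in the deposited count table, in which each name matched 1 row, so that they are 9 of 57180 genes. Samples were 3 FOXP3-high and 4 FOXP3-low libraries of tumour-infiltrating Treg cells, both from Foxp3-Cre-YFP mice that carried B16-F0 melanoma, a transplantable mouse tumour line. All 7 libraries are labelled as wild type in genotype, and both groups share the Foxp3-driven Cre-YFP reporter. The labels state no age, treatment, sorting gate or pooling of mice, so a p-value speaks only of the spread among these 7 samples, part of which may be technical.

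Th17 cells are the helper T cells that make interleukin-17 and recruit neutrophils. Interleukin-6, interleukin-21 and interleukin-23 activate STAT3 through receptors that use Janus kinases, and STAT3 switches on Il23r and its own inhibitor Socs3. The transcription factor c-MAF, encoded by Maf, and the ligand-activated factor AHR act beside STAT3 in these cells, and a part of the Treg cells of the intestine uses c-MAF together with FOXP3.

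The start regions of 3 members are shown, and each holds letters that a factor of this route is known to read. Those of Il21r, Il6ra and Stat3 also hold such letters and are not shown. The sequences are RefSeq windows of GRCm38.p6, running from 250 bases before to 50 after an annotated start, in the direction of the gene. They lie at chr11:117969317-117969616 on the minus strand for Socs3, chr1:20730655-20730954 on the plus strand for Il17a and chr6:67491806-67492105 on the minus strand for Il23r. Capitals mark TTCNNNGAA (the STAT motif), AGGTCA (a core that nuclear receptors read), GCGTG (the core of an AHR site) and TGCTGA (the core of a MAF site) on either strand.
Socs3: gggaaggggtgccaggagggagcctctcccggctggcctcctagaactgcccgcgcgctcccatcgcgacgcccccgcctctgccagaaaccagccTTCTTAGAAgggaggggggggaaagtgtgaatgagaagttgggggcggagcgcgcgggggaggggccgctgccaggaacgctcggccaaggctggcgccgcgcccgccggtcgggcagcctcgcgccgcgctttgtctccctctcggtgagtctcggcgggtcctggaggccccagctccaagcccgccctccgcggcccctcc
Il17a: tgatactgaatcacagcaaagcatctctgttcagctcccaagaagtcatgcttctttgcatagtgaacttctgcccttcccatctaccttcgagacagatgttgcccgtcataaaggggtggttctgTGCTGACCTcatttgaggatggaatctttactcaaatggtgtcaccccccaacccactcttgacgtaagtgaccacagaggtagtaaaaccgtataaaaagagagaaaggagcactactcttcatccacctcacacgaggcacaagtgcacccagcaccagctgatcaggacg
Il23r: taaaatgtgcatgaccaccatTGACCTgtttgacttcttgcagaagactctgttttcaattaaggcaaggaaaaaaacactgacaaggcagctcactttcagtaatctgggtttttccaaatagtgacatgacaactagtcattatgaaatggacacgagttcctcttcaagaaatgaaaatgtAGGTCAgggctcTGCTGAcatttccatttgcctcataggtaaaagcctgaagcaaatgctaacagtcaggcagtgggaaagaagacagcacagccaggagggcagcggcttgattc
Socs3 held the STAT motif 154 bases before this start, and the annotation gives the gene further starts. Among the 7 members with a sequence in the table, Socs3 was the only 1 with TTCNNNGAA in this window, which 8.3% of all 32851 windows hold. Il17a held TGCTGA 123 bases and AGGTCA, on the opposite strand, 120 bases before its start, so that the TGCTGA and AGGTCA letters overlap. Il23r held AGGTCA 66 bases and TGCTGA 54 bases before its start, and another AGGTCA on the opposite strand 229 bases before it. AGGTCA occurred in 3 of the 7 members against 16.3% of all windows, TGCTGA in 4 against 19.5% and GCGTG in 2 against 32.4%. These matches describe letters and not binding.

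Libraries held 9048771 to 11202260 counts in FOXP3-high and 12177761 to 14546999 in FOXP3-low, and levels are given as CPM (counts scaled to a common library size after TMM normalization). The T cell genes Cd3e, Cd4 and Trac and the Treg genes Foxp3, Il2ra, Ctla4 and Ikzf2 were present in both groups, with mean levels between 124 and 1596 CPM. Foxp3 averaged 698 CPM in FOXP3-high and 357 CPM in FOXP3-low, in the direction of the labels. Other cell types were also present and differed between the groups, as the plot of summed markers shows. The 18 macrophage and monocyte genes summed to 742 to 774 CPM in FOXP3-high and to 2524 to 3106 CPM in FOXP3-low, with 17 lower and 1 higher (Ccr2, which T cells also use). None of the 18 was at 0 in all FOXP3-high libraries. Neutrophil genes summed to 115 to 257 CPM in FOXP3-high and 2920 to 3440 CPM in FOXP3-low, and dendritic cell genes to 105 to 172 CPM in FOXP3-high and 1284 to 1990 CPM in FOXP3-low. Melanoma genes summed to 3222 to 4427 CPM in FOXP3-high and 1305 to 2356 CPM in FOXP3-low. B and plasma cell genes summed to 5.57 to 7.14 CPM in FOXP3-high and 38.4 to 87.9 CPM in FOXP3-low, and CD8 T cell and NK cell genes to 25.2 to 36.5 CPM in FOXP3-high and 55.4 to 79.1 CPM in FOXP3-low. Endothelial and fibroblast genes overlapped between the groups and were highest in the libraries numbered 3, apart from the rest of their group in FOXP3-low. The part of these other cells in the results below was not tested, and in bulk RNA fewer cells of a type and less RNA per cell cannot be told apart.

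**Figure D1:**
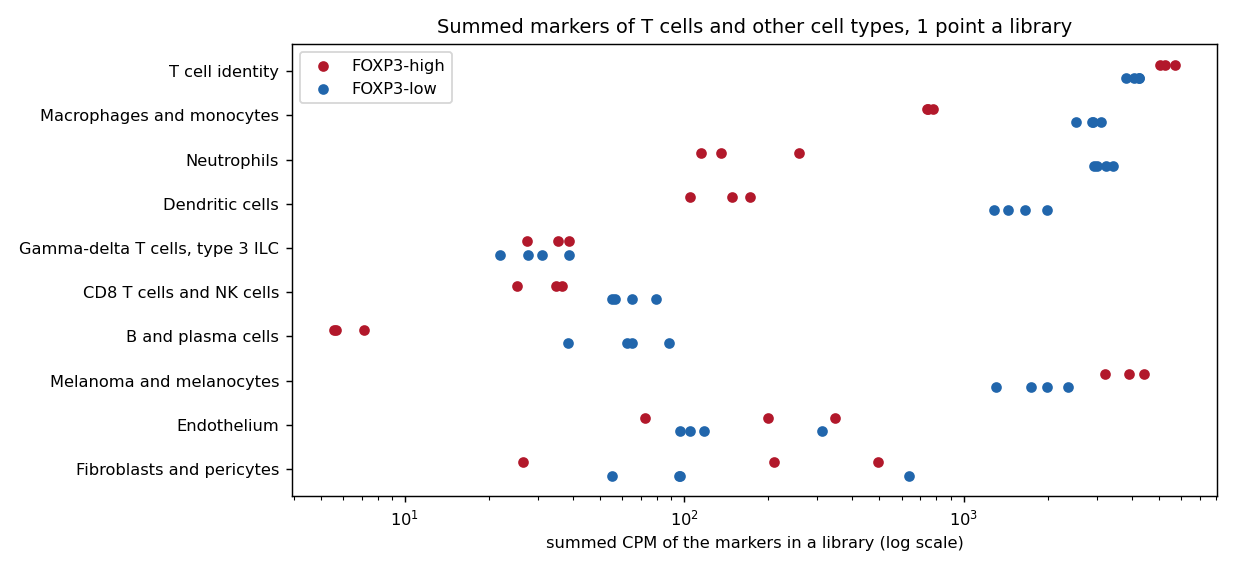
Summed CPM of marker genes (horizontal axis, log scale) in each library, by cell type (rows); FOXP3-high libraries are red and FOXP3-low libraries blue. T cell and melanoma genes were higher in FOXP3-high, macrophage, neutrophil, dendritic, CD8 and B cell genes were lower, and the endothelial and fibroblast sums overlapped.

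With TMM scaling, Maf and Il6st were higher and Socs3 lower in the FOXP3-high libraries, while no change was detected in Stat3 and Il21r. With libraries scaled to T cell genes instead, as described below, Stat3 (log2 fold change -0.41) and Il21r (-0.34) were lower. Of the 9 members, 8 passed the filter on low counts, and 5 of these were called, with a Benjamini-Hochberg adjusted p under 0.05 by the quasi-likelihood test of edgeR over all 15838 genes tested. Across all genes tested 46.5% passed, so the share among the members is near the background. The members that were higher numbered 4 (Maf, Il6st, Il6ra and Ahr), where 21.8% of all genes were, and 1 was lower (Socs3), where 24.6% were. With any 1 library left out, 2 or 3 members were higher, since Ahr or Il6ra or both were lost. Without FOXP3-high replicate 1, 2 or 3, 2 members were lower, since Il17a then entered the test. The median log2 fold change, FOXP3-high minus FOXP3-low, was 0.16 over the 8 tested members and 0.01 over all genes tested.

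**Figure D2:**
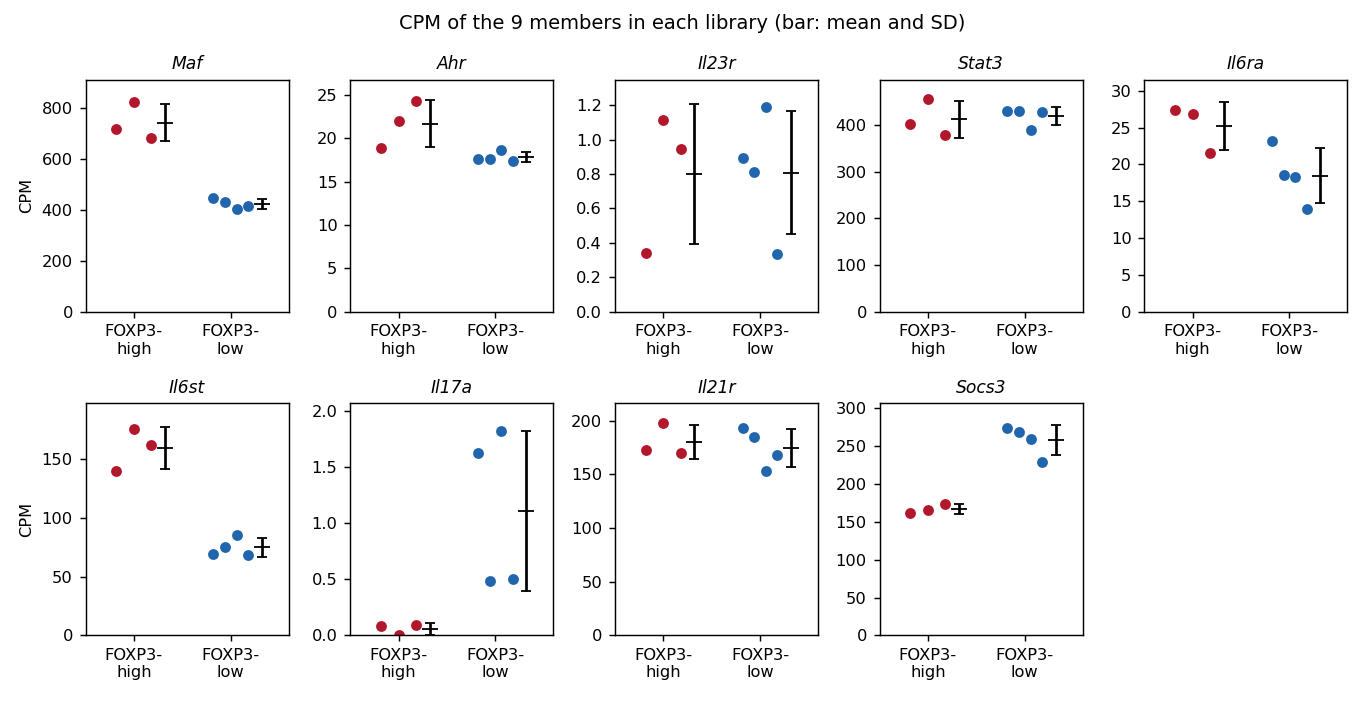
CPM (vertical axes, each from 0) of the 9 members in each of the 3 FOXP3-high libraries (red) and 4 FOXP3-low libraries (blue), with the mean and SD of each group as a black bar. Maf, Il6st and Ahr lie higher in every FOXP3-high library, Socs3 and Il17a lie lower, and Stat3, Il21r, Il23r and Il6ra overlap.

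Maf encodes c-MAF, a leucine zipper factor that drives Il10 and parts of the Th17 programme. Maf (ENSMUSG00000055435, chromosome 8, 116409681 to 116433835, minus strand, GRCm39) stood at 717, 821 and 682 CPM in the FOXP3-high libraries, against 446, 429, 403 and 412 CPM in the FOXP3-low libraries. Every FOXP3-high library lay above every FOXP3-low library, as was the case for 4 of the 8 tested members in one direction or the other and for 50.7% of all genes tested. Maf averaged 740 ± 72.3 CPM in FOXP3-high (SD, n = 3) and 423 ± 19.3 CPM in FOXP3-low (SD, n = 4), 1.75-fold higher (log2 fold change 0.81 ± 0.066 SE, edgeR adjusted p = 9.85e-06). In the same libraries 8 of 8 tested melanoma genes were higher (median log2 fold change 1.11) and 17 of 18 macrophage and monocyte genes, whose cells also express Maf, were lower (median -3.93); the part of these cells in the Maf difference was not tested. Gm15655, which overlaps Maf on the opposite strand, held 11% as many counts and averaged 83.6 CPM in FOXP3-high and 44.9 CPM in FOXP3-low. Whether the counting used strand is not stated, so reads of such pairs may be shared.

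Ahr encodes the aryl hydrocarbon receptor, which senses dietary, microbial and tryptophan-derived ligands. Ahr (ENSMUSG00000019256, chromosome 12, 35547973 to 35585037, minus strand) stood at 18.8, 21.9 and 24.3 CPM in FOXP3-high, against 17.6, 17.7, 18.6 and 17.4 CPM in FOXP3-low. The groups did not overlap, but the nearest libraries, FOXP3-high replicate 1 and FOXP3-low replicate 3, were almost level. The log2 fold change was 0.28 ± 0.10 SE (edgeR adjusted p = 0.0464), and this call was fragile. It was lost without FOXP3-high replicate 2 (0.0699) or 3 (0.186) and without FOXP3-low replicate 1 (0.0695), 2 (0.0687), 3 (0.07) or 4 (0.0711), the values being edgeR adjusted p. The antisense gene Gm48236 held 106% as many counts as Ahr and averaged 31.3 CPM in FOXP3-high and 14 CPM in FOXP3-low, so reads of the pair cannot be told apart with certainty.

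Stat3 encodes the factor that carries the signals of interleukin-6, interleukin-21 and interleukin-23 to the nucleus. Stat3 (ENSMUSG00000004040, chromosome 11, 100775924 to 100830206, minus strand) stood at 402, 456 and 379 CPM in FOXP3-high and at 430, 430, 389 and 427 CPM in FOXP3-low. The libraries interleaved, with the highest and the lowest value both in FOXP3-high. The log2 fold change was -0.02 ± 0.067 SE, with an edgeR adjusted p of 0.81, which does not show that the levels were equal. Stat5a, on the opposite strand with 11.8% as many counts, ends at 100775994 and so overlaps only the edge of Stat3.

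Socs3 encodes a suppressor of cytokine signalling that binds the interleukin-6 receptor chain gp130 and shuts off STAT3 activation, and it is itself a STAT3 target whose start region is shown above. Socs3 (ENSMUSG00000053113, chromosome 11, 117856905 to 117860873, minus strand) stood at 161, 166 and 173 CPM in FOXP3-high, against 274, 268, 259 and 229 CPM in FOXP3-low. All FOXP3-high libraries were below all FOXP3-low libraries, and the FOXP3-high values were the most even of the members. Socs3 averaged 167 ± 6.1 CPM in FOXP3-high (SD, n = 3) and 258 ± 19.9 CPM in FOXP3-low (SD, n = 4), 1.54-fold lower (log2 fold change -0.63 ± 0.067 SE, edgeR adjusted p = 5.11e-05). Macrophages and neutrophils also express Socs3, and their markers fell in the same libraries; their part in the difference was not tested.

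Il6st encodes gp130, the signalling chain shared by the receptors of interleukin-6, interleukin-11, LIF and oncostatin M. Il6st (ENSMUSG00000021756, chromosome 13, 112600604 to 112646620, plus strand) stood at 140, 176 and 162 CPM in FOXP3-high, against 69.6, 75.6, 85.6 and 68.8 CPM in FOXP3-low. The groups stood well apart, and Il6st had the largest change among the tested members. It averaged 159 ± 17.9 CPM in FOXP3-high (SD, n = 3) and 74.9 ± 7.74 CPM in FOXP3-low (SD, n = 4), 2.13-fold higher (log2 fold change 1.09 ± 0.096 SE, edgeR adjusted p = 1.57e-05). In the same libraries 8 of 8 tested melanoma genes were higher (median log2 fold change 1.11) and 17 of 18 macrophage and monocyte genes were lower. The part of other cells in the Il6st difference was not tested.

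Il6ra encodes the chain that binds interleukin-6 before gp130 joins. Il6ra (ENSMUSG00000027947, chromosome 3, 89771366 to 89820503, minus strand) stood at 27.3, 26.8 and 21.5 CPM in FOXP3-high and at 23.2, 18.5, 18.3 and 14 CPM in FOXP3-low. FOXP3-low replicate 1 lay above FOXP3-high replicate 3, so the groups overlapped. The log2 fold change was 0.45 ± 0.16 SE (edgeR adjusted p = 0.0445). That call was lost without FOXP3-high replicate 1 (edgeR adjusted p = 0.177) or 2 (0.0977) and without FOXP3-low replicate 2 (0.0728), 3 (0.0777) or 4 (0.0657). Gm42809 overlaps Il6ra on the opposite strand with 13.4% as many counts.

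Il21r, the receptor for interleukin-21, which activates STAT3 with the common chain encoded by Il2rg, stood at 173, 198 and 169 CPM in FOXP3-high and at 193, 185, 153 and 168 CPM in FOXP3-low (ENSMUSG00000030745, chromosome 7, 125202601 to 125232742, plus strand). The 2 sets of libraries overlapped over most of their range, with a log2 fold change of 0.04 ± 0.087 SE (edgeR adjusted p = 0.722). Il23r, which makes Th17 cells responsive to interleukin-23, rested on 4, 10 and 10 counts in FOXP3-high and on 11, 10, 17 and 4 counts in FOXP3-low (ENSMUSG00000049093, chromosome 6, 67399916 to 67468839, minus strand). Its mean was 0.8 ± 0.404 CPM in FOXP3-high (SD, n = 3) and 0.808 ± 0.355 CPM in FOXP3-low (SD, n = 4). A difference was not detectable at this depth (log2 fold change -0.06 ± 0.53 SE, edgeR adjusted p = 0.942).

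Il17a, the cytokine that Th17 cells are named for, was close to the detection limit, with fewer counts in every FOXP3-high library than in any FOXP3-low library. Il17a (ENSMUSG00000025929, chromosome 1, 20801129 to 20804720, plus strand) had 1, 0 and 1 counts in FOXP3-high and 20, 6, 26 and 6 counts in FOXP3-low. The FOXP3-low libraries fell into a pair at 1.63 and 1.82 CPM (replicates 1 and 3) and a pair at 0.488 and 0.502 CPM (replicates 2 and 4), all above FOXP3-high. The gene did not pass the filter on low counts, so it has no adjusted p from the test over 15838 genes. Summed over libraries, 2 counts in FOXP3-high against 58 in FOXP3-low gave a ratio of 0.0562 per normalized library size, with a 95% interval (exact binomial, counting error only) of 0.00664 to 0.212. The difference of mean CPM was -1.05, and an exact two-sided permutation test over the 35 splits gave p = 0.0571, the smallest p that 3 against 4 libraries allow. With no filter, over 30210 genes, edgeR's adjusted p was 0.00161. Of gamma-delta T cell and type 3 innate lymphoid cell genes, which mark other sources of interleukin-17, 6 were tested. Of these 6 Scart2 was higher and none was lower (none at an unadjusted p under 0.05 either). Blk, a kinase gene of interleukin-17-producing gamma-delta T cells, failed the filter as Il17a did, with 2 counts in FOXP3-high against 16 in FOXP3-low (0.0601 ± 0.0522 CPM, SD, n = 3, against 0.321 ± 0.182 CPM, SD, n = 4) and no overlap. The part of these cells in the Il17a counts was not tested, and the 7 matched genes summed to 27.4 to 38.8 CPM in FOXP3-high and 21.9 to 38.8 CPM in FOXP3-low.

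The size of several of these changes depended on what the libraries were scaled to. A set of 17 T cell identity genes summed to 5034 to 5731 CPM in FOXP3-high and 3830 to 4249 CPM in FOXP3-low. Of these 17 genes 15 were called higher and 1 lower (median log2 fold change 0.45). With the libraries scaled to the summed counts of these genes, the median of all genes moved by -0.38 (log2). Maf (log2 fold change 0.42) and Il6st (0.70) then still rose and Socs3 (-1.01) still fell, each past the threshold in edgeR. Stat3 (-0.41, edgeR adjusted p = 5.34e-05) and Il21r (-0.34, edgeR adjusted p = 0.00303) were then lower. Ahr turned to -0.10 and Il6ra shrank to 0.06, with neither passing (edgeR adjusted p = 0.552 and 0.806). With this scaling 2 members were higher and 3 lower.

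**Figure D3:**
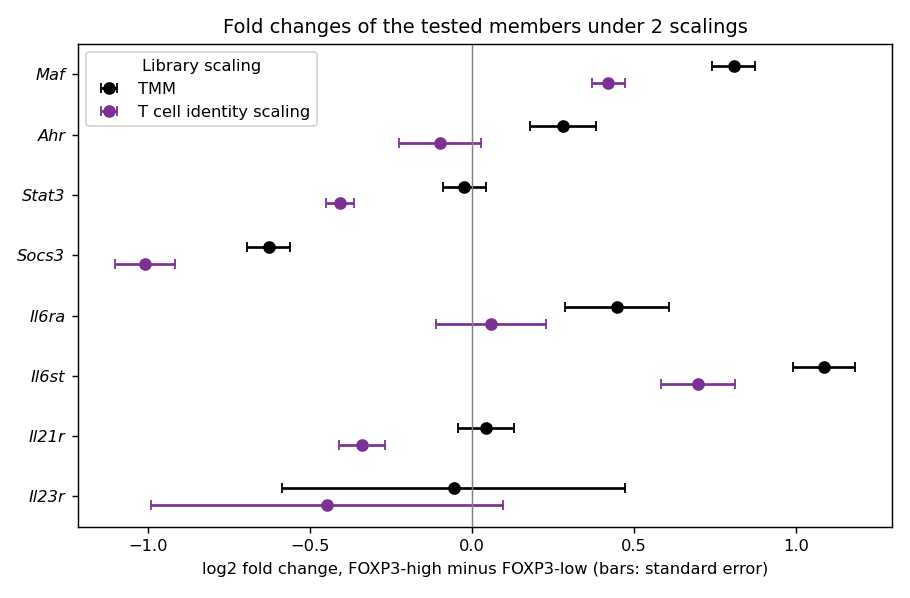
Log2 fold change (horizontal axis, FOXP3-high minus FOXP3-low, with standard error) of the 8 tested members from the edgeR fit with TMM scaling (black) and with scaling to 17 T cell identity genes (purple). Maf and Il6st stay above 0 and Socs3 below 0 under both, while Ahr changes side and Stat3 and Il21r move below 0.

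Levels of different genes were compared per kilobase of the deposited gene length. In FOXP3-high the order was Maf (89.8 CPM per kb), Socs3 (57.7), Il21r (54.2), Stat3 (43.3), Il6st (14.4), Ahr (3.52), Il6ra (2.92), Il23r (0.322) and Il17a (0.0513). Socs3 and Il21r overlapped there, as did Ahr and Il6ra, and the other neighbours did not. In FOXP3-low the order began with Socs3 (89.1 CPM per kb), Il21r (52.6), Maf (51.3) and Stat3 (44), went on with Il6st (6.75), Ahr (2.89) and Il6ra (2.14), and ended with Il17a (0.947) and Il23r (0.325). Il21r and Maf overlapped in FOXP3-low, as did Il17a and Il23r. Maf thus had the highest mean in FOXP3-high and Socs3 in FOXP3-low. By the mean of both groups per kilobase, Socs3 and Maf lay above 95.5% and 95.3% of tested genes, and Il23r above 5.66%.

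Ratios of counts within a library do not depend on how libraries are scaled, and 9 were computed, of which 7 are reported. Each is a mean log2 ratio with its SD, and p-values are from the exact two-sided permutation test, adjusted over the 9 ratios. None can pass 0.05, since the smallest p allowed is 0.0571 before adjustment. The ratios at that p had an exact permutation adjusted p of 0.0857. Socs3 to Stat3 averaged -1.30 ± 0.17 in FOXP3-high and -0.70 ± 0.13 in FOXP3-low, a ratio of 0.405 against 0.614, with no overlap (exact permutation adjusted p = 0.0857). Socs3 counts were thus lower relative to Stat3 counts in all 3 FOXP3-high libraries. A ratio within a library still depends on its mix of cells. Macrophage and neutrophil markers were lower in the same libraries, and their part in the ratios was not tested. Il6ra to Il6st averaged -2.66 ± 0.28 in FOXP3-high and -2.03 ± 0.32 in FOXP3-low, again without overlap. Stat3 to Stat5b, the factor of the interleukin-2 signal that opposes Il17a, averaged 0.58 ± 0.050 in FOXP3-high and 1.58 ± 0.013 in FOXP3-low, so that Stat3 counts were 1.5 times those of Stat5b against 2.99 times.

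Il21r to Il2rg averaged -0.46 ± 0.036 in FOXP3-high and 0.00 ± 0.051 in FOXP3-low. This ratio did not overlap between the groups either, with the same exact permutation adjusted p of 0.0857. The other 3 ratios overlapped between the groups. They were Maf to Foxp3 (0.09 ± 0.063 in FOXP3-high and 0.25 ± 0.19 in FOXP3-low), Ahr to Arnt (-2.58 ± 0.18 in FOXP3-high and -2.70 ± 0.061 in FOXP3-low) and Il23r to Il12rb1 (-5.10 ± 0.84 in FOXP3-high and -4.85 ± 0.68 in FOXP3-low). The Maf to Foxp3 ratio lay between 0.02 and 0.44 (log2) in all 7 libraries.

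**Figure D4:**
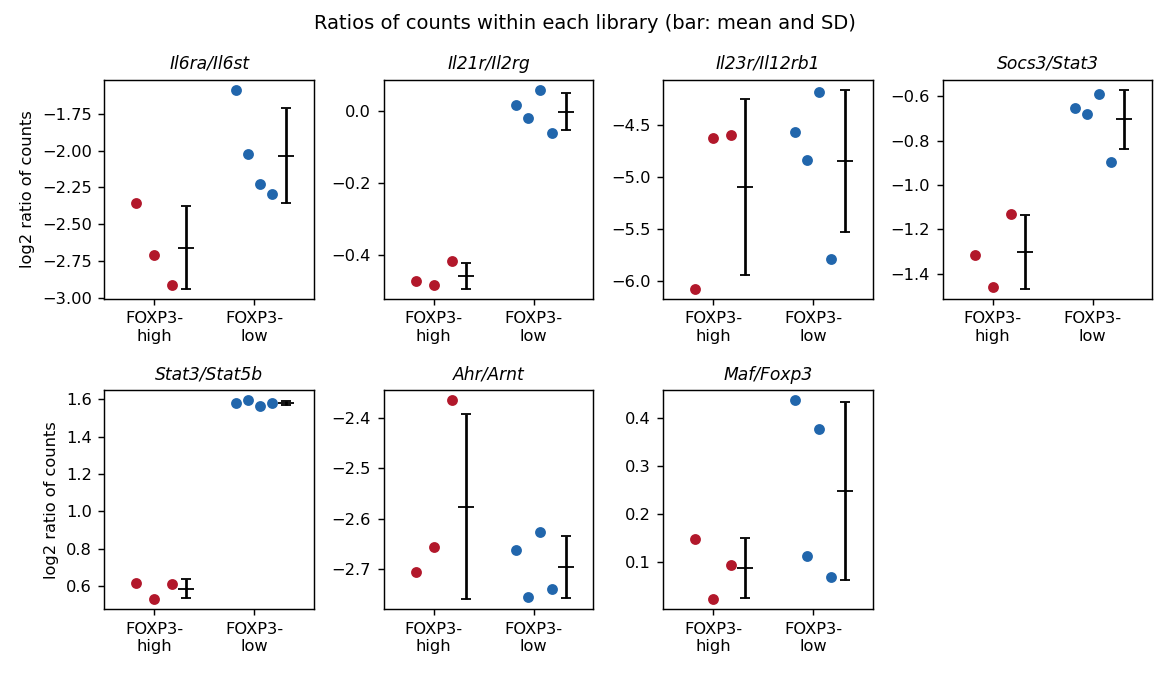
Log2 ratio of counts of 2 genes (vertical axes, not starting at 0) in each FOXP3-high library (red) and FOXP3-low library (blue), with the mean and SD as a black bar. The ratios Il6ra/Il6st, Il21r/Il2rg, Socs3/Stat3 and Stat3/Stat5b are lower in every FOXP3-high library, and the other 3 overlap.

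Other genes of the route were described by 9 lists, chosen like the members with earlier results of these data known. They hold 93 genes beside the members, of which 83 were tested, with 28 higher and 24 lower in FOXP3-high (edgeR adjusted p under 0.05). That is 62.7%, against 46.5% of all genes, and the median log2 fold change was -0.04 against 0.01.

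Of 13 Th17 transcription factors and cofactors 6 were higher and 2 lower (median 0.09). The higher genes included Ikzf3, which encodes Aiolos, at 426 ± 41.2 CPM in FOXP3-high (SD, n = 3) and 234 ± 14.9 CPM in FOXP3-low (SD, n = 4; edgeR adjusted p = 1.13e-05). Satb1, a chromatin organizer of T cells, was 1.79-fold higher and Hif1a, the hypoxia factor, 1.31-fold higher, the rise of Hif1a being lost with T cell identity scaling (log2 fold change 0.01). Batf, a pioneer factor of Th17 cells, was 1.37-fold lower. With that scaling the list held 3 higher and 6 lower genes.

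Of 14 Th17 cytokine and surface genes 11 were tested, with 2 higher and 3 lower (median -0.06; 2 and 4 with T cell identity scaling). Csf2, the cytokine GM-CSF of pathogenic Th17 cells, averaged 2.72 ± 0.188 CPM in FOXP3-high (SD, n = 3) and 11.2 ± 1.89 CPM in FOXP3-low (SD, n = 4), 4.12-fold lower (edgeR adjusted p = 2.23e-05). Lif was 2.7-fold lower and Klrb1b, a lectin-like receptor of NK cells, 8.24-fold lower. Abcb1a, a drug efflux pump, averaged 229 ± 21.4 CPM in FOXP3-high and 68.2 ± 4.9 CPM in FOXP3-low, 3.36-fold higher. Il10, the anti-inflammatory cytokine that c-MAF drives, was the other higher gene, with a log2 fold change of 0.76. Il22, Ccl20 and Il24 did not pass the filter. Summed markers of myeloid cells and of CD8 T cells and NK cells fell in the same libraries as Csf2, Lif and Klrb1b. The part of these cells was not tested. Gm44511 overlaps Klrb1b on the same strand with 21.2% as many counts.

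Of 11 ligands of STAT3 receptors 10 were tested, with 5 lower and 2 higher (median -1.60; 6 and 1 with T cell identity scaling). Il23a, the specific chain of interleukin-23, averaged 2.4 ± 0.308 CPM in FOXP3-high (SD, n = 3) and 54.5 ± 7.5 CPM in FOXP3-low (SD, n = 4), 22.8-fold lower (edgeR adjusted p = 1.07e-07). Osm, oncostatin M, was 9.41-fold lower, at 11 CPM in FOXP3-high and 104 CPM in FOXP3-low. Il27 was at 0.123 CPM in FOXP3-high, where replicate 2 had no count, and 3.67 CPM in FOXP3-low. Macrophages and dendritic cells make these 3 ligands, and markers of both fell in the same libraries. The part of these cells was not tested.

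A list of 10 cytokine receptor genes held chains of the gp130 and interleukin-12 families beside Il2rg, Il10ra and Il10rb of other families. Of these 10, 3 were higher and 2 lower (median 0.35), Il2rg being among the higher and Il10rb among the lower. With T cell identity scaling none was higher and 4 were lower. Il27ra, the interleukin-27 receptor, was 1.55-fold higher, Il2rg 1.42-fold and Cntfr, a low-level chain of the ciliary neurotrophic factor receptor, 2.17-fold. Lifr, the LIF receptor, averaged 2.65 ± 2.33 CPM in FOXP3-high and 9.51 ± 1.3 CPM in FOXP3-low (edgeR adjusted p = 0.0151, and 0.0613 without FOXP3-high replicate 1). Without FOXP3-high replicate 1 no chain of the list was lower, and 1 was without FOXP3-high replicate 3 or FOXP3-low replicate 1 or 2. Il12rb1, the partner chain of Il23r, did not pass (log2 fold change 0.23, edgeR adjusted p = 0.074). It did pass without FOXP3-high replicate 3 (edgeR adjusted p = 0.0495) or FOXP3-low replicate 2 (0.0403), with upper quartile factors (0.0327) and with total counts (0.0186), and had a log2 fold change of -0.16 with T cell identity scaling (0.176).

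Of 14 genes of Janus kinases, STATs and their regulators 7 were higher and 1 lower (median 0.15), but with T cell identity scaling 2 were higher and 8 lower. The regulators were phosphatases and Pias3, a STAT inhibitor that is not a phosphatase and was among the higher genes. The lower genes numbered 2 without FOXP3-high replicate 2 or FOXP3-low replicate 3, and also with no filter, with the filter of 50 counts and with limma-voom. Stat5b averaged 276 ± 36 CPM in FOXP3-high (SD, n = 3) and 140.1 ± 5.59 CPM in FOXP3-low (SD, n = 4), 1.97-fold higher (edgeR adjusted p = 9.69e-06), and Stat4 was 1.59-fold higher. Jak1, the kinase bound to gp130, was 1.33-fold higher, with a log2 fold change of 0.02 after T cell identity scaling. The gene model Gm28177 overlaps Stat4 on the same strand with more counts than it, so Stat4 is uncertain. Ptpn6, the phosphatase SHP-1 of blood cells, was the lower gene, 2.47-fold, and is also abundant in myeloid cells.

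The other SOCS genes did not follow Socs3. Of 7 tested, 5 were higher and none lower (median 0.58), where with T cell identity scaling 2 were higher and 2 lower. At an unadjusted p under 0.05 no SOCS gene of this list was lower in edgeR, and none was lower with DESeq2 or limma-voom. Socs2 averaged 23.8 ± 0.902 CPM in FOXP3-high (SD, n = 3) and 13.2 ± 0.677 CPM in FOXP3-low (SD, n = 4), 1.81-fold higher (edgeR adjusted p = 4.27e-05). Cish, induced by STAT5, was 1.55-fold higher, and Socs1 and Socs4 were 1.56-fold and 1.44-fold higher, with the calls of Socs1 and Socs4 lost under T cell identity scaling.

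Of 14 genes that STAT3 is known to induce, 6 were lower and 3 higher (median -0.27; 9 and 1 with T cell identity scaling). Vegfa, the vascular growth factor, averaged 98.8 ± 18.8 CPM in FOXP3-high (SD, n = 3) and 293 ± 17.5 CPM in FOXP3-low (SD, n = 4), 2.96-fold lower (edgeR adjusted p = 5.62e-06). Fos was 1.59-fold lower, and so were the survival genes Bcl2l1 (1.81-fold) and Mcl1 (1.8-fold). Macrophage and neutrophil genes fell in the same libraries (median log2 fold changes -3.93 and -4.15), and their part was not tested. Bcl3, Hif1a and Il10 of the same list were higher.

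Of 11 AHR partners and targets 6 were tested, with 3 lower and 2 higher (median -0.19; 5 and 1 with T cell identity scaling). The targets did not move together. Gpr15, a homing receptor that AHR can induce, averaged 28.1 ± 2.25 CPM in FOXP3-high (SD, n = 3) and 5.9 ± 0.584 CPM in FOXP3-low (SD, n = 4). Tiparp, a mono-ADP-ribosyltransferase that AHR induces and that limits it, averaged 31.1 ± 1.93 CPM in FOXP3-high and 79.4 ± 6.27 CPM in FOXP3-low, 2.55-fold lower (edgeR adjusted p = 1.83e-06). Hsp90ab1, a chaperone of AHR, was 1.38-fold lower. Ahrr, Cyp1a1, Cyp1b1, Nqo1 and Il22 did not pass the filter. Arnt, the AHR partner, had a log2 fold change of 0.16 (edgeR adjusted p = 0.047), which turned to -0.23 with T cell identity scaling. The list held 1 higher gene in each of 6 of the 7 fits that left out a library (all but that without FOXP3-low replicate 2).

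Of 8 genes of the MAF and BACH families beside Maf 6 were tested, with 4 lower and 1 higher (median -0.68, and 5 and 1 with T cell identity scaling). Maff, a small MAF protein gene, averaged 32.6 ± 3.75 CPM in FOXP3-high (SD, n = 3) and 82.5 ± 7.58 CPM in FOXP3-low (SD, n = 4), 2.53-fold lower (edgeR adjusted p = 5.98e-06). Bach1 was 2.12-fold lower and Bach2, a repressor that keeps T cells resting, 2.18-fold higher.

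**Figure D5:**
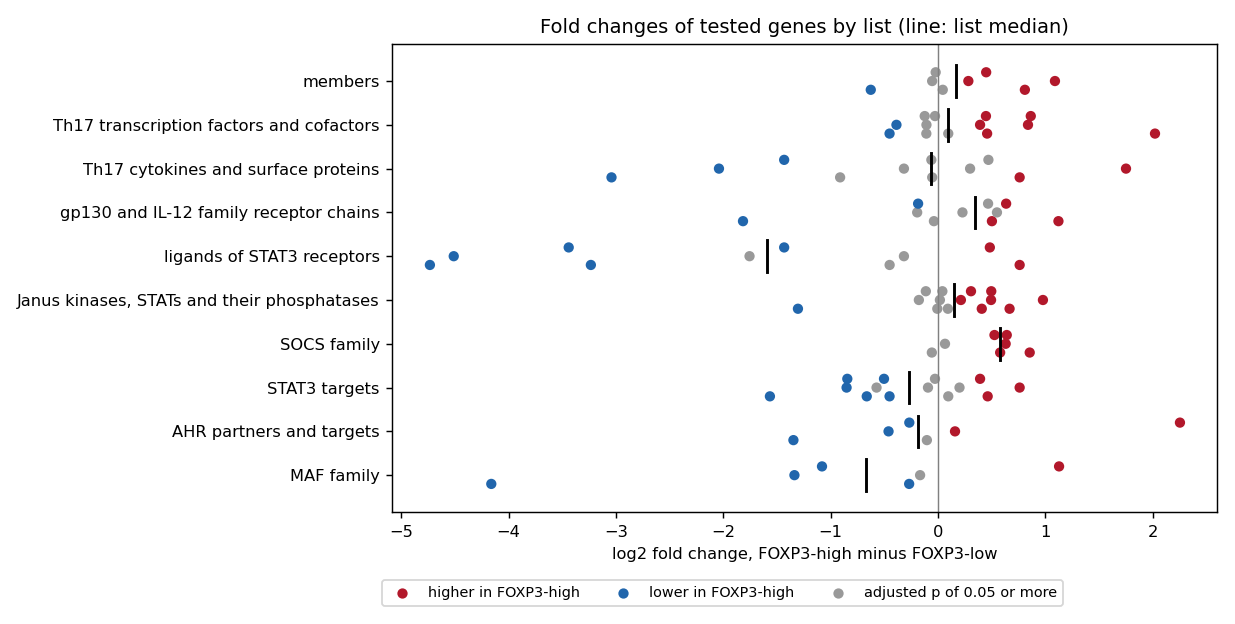
Log2 fold change (horizontal axis, FOXP3-high minus FOXP3-low) of each tested gene in the members and 9 lists (rows), coloured by its call and with the list median as a black line. Ligands of STAT3 receptors have the lowest median (-1.60) and SOCS family genes the highest (0.58).

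For the 7 members with a mean of at least 5 CPM, the genes with the most similar profile were sought among 9611 others, by the root mean square difference of gene-centred log2 CPM over the 7 libraries. The nearest to Maf were Gramd1a (0.0356), Shisa5 (0.0375) and Satb1 (0.0381), and to Ahr Nt5dc1 (0.0335), Cobll1 (0.0488) and Atm (0.0527). Those nearest to Stat3 were Prpf18 (0.0232), Ctdp1 (0.0275) and Fmnl1 (0.03), and to Socs3 Cnot9 (0.0189), Lrpap1 (0.0313) and Sde2 (0.0392). Il6st lay nearest to Rab6b (0.0618), Bcorl1 (0.0619) and Zbtb4 (0.0727), and Il6ra to Tbc1d4 (0.0782), Plpp6 (0.0962) and Nyap1 (0.111). Il21r lay nearest to Cc2d1b (0.0338), Marchf7 (0.0374) and Fbxo11 (0.0384). Some distances rested on 1 library. Il6st to Zbtb4 was 0.0294 without FOXP3-high replicate 1, Il21r to Cc2d1b 0.0173 without FOXP3-low replicate 1 and Socs3 to Lrpap1 0.0169 without FOXP3-low replicate 3. Without both libraries numbered 3, Ahr to Nt5dc1 was 0.0183, Socs3 to Lrpap1 0.0185 and Socs3 to Sde2 0.026. These distances describe 7 libraries, and a gene with a similar change between the groups is near by construction.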

How the data were processed

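RNA from 3 FOXP3-high and 4 FOXP3-low libraries was taken up in TRIzol and went through a stranded mRNA kit, per the labels' protocols. The authors deposited a table of raw counts per gene with coordinates and gene lengths in bases. The submitters' processing notes name fastp (0.23.4), STAR (2.5.3a), featureCounts, GRCh38 and GRCm39; mouse coordinates are therefore given as GRCm39, while RefSeq windows are GRCm38.p6. The strand setting and the treatment of shared reads were not stated. Unmapped sample columns numbered 0, and rows without a gene name 0.

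Sample titles gave the groups. The test was edgeR 4.0.16 in R 4.3.3 (filterByExpr with minimum count 10 and total 15, TMM, glmQLFit and glmQLFTest), adjusted by Benjamini-Hochberg with a threshold of 0.05. Standard errors are |log2 fold change| over the root of F. A level of 1 CPM rests on 8.98 to 14.3 counts. Every pair of replicates differed beyond counting noise (chi-square per gene 3.98 to 12.2), so none was treated as a library deposited in duplicate; this does not show that they come from separate animals. Alternatives were 4 other scalings, 2 other filters, DESeq2 1.42.0, limma 3.58.1 (voom), glmTreat, a replicate block and leaving out libraries; those for Il17a and the profile distances were added after seeing the data. Exact permutation tests used scipy 1.17.1. The fit was tried on simulated counts. A preset criterion on the share of changed genes recovered was missed in a run and was loosened afterwards. No value of that trial is used here.

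Named genes are the members, the genes of the ratios, Foxp3, up to 4 genes of each list with the smallest adjusted p under 0.05, and 3 similar genes per member. Il10, Bcl3, Ccr2, the further Treg markers, the overlapping gene models and the genes that failed the filter were named after their values were seen. The rule would also have named genes of the endothelial and fibroblast lists, in which none passed; they were left out after the results were seen. A few results are not reported here; their genes still count in the lists, and 9 ratios entered the adjustment. Members and lists were chosen with earlier results of these data known.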

Additional observations from a re-analysis of the deposited data

Results flagged for a closer look

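In 5 of 90 groups of 4 FOXP3-low values, 1 library lay apart from the other 3 beyond Dixon's 95% critical value, which chance gives in about 1 of 20 groups. FOXP3-low replicate 3 was low for Stat3 (389 CPM) and Stat5b (132 CPM). The same library was high for the summed CPM of endothelial genes (311) and of fibroblast and pericyte genes (638). FOXP3-low replicate 1 was high for Fcgr3, an Fc receptor gene of macrophages, at 70.0 CPM. The 3 FOXP3-high libraries were too few for this rule.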

How the results depend on the processing

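Maf, Il6st and Socs3 kept direction and call under every alternative except glmTreat, which asks for more than a log2 fold change of 1 (Maf 0.81, Il6st 1.09, Socs3 -0.63); it also lost Ahr (0.28) and Il6ra (0.45), and called 1118 genes, 137 higher and 981 lower. T cell identity scaling called 1093 genes higher and 7160 lower. It gave Ahr -0.10, Il6ra 0.058, Stat3 -0.41 and Il21r -0.34, and reversed Il12rb1 (-0.16) and Arnt (-0.23). The split was 3459 higher and 3898 lower in the main test, 3898 and 3591 with upper quartile factors, and 4122 and 3476 with total counts. Ahr also lost its call with no filter (0.24), DESeq2 (0.28), voom (0.27), without both libraries numbered 3 (0.21) and with the replicate block (0.27, adjusted p 0.0901). Il23r reversed with total counts (0.0096) and without both libraries numbered 3 (0.040), Stat3 with upper quartile factors (0.026) and total counts (0.043), and Il21r with no filter (-0.00011). Leaving out each library gave log2 fold changes of 0.19 to 0.35 for Ahr, 0.35 to 0.59 for Il6ra, -0.33 to 0.30 for Il23r, -0.075 to 0.035 for Stat3 and -0.027 to 0.11 for Il21r. The log2 ratio of Il23r to Il12rb1 then differed by -0.57 to 0.24, and was positive only without FOXP3-high replicate 1. The cause of these changes was not tested. Same-numbered libraries correlated at -0.101, 0.0965 and 0.53, so the numbers were not taken to pair the samples; the block called 7029 genes against 7357. Il23r and Il17a were limited by depth.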
